A study of Mus musculus with 6 samples.

Results

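Liver RNA of mice fed the HFC diet and given fenofibrate was set against pooled liver RNA of chow-fed mice on 2 of the 6 arrays of the series, the 2 arrays that carry the fenofibrate-treated mouse in their titles. For every gene the mean of the 2 log ratios was compared with 0, the level of the pool. Genes with the same sign on both arrays are described first. All mice were C57BL/6 and 7 weeks old. The fenofibrate mice (100 mg/kg) ate the HFC diet, which the titles call a high fat diet, for 12 days, with oral dosing once daily beginning on day 5. The HFC mice (vehicle) and the lovastatin mice (30 mg/kg) had the same diet and schedule, and each of these groups has 2 arrays. The pool came from 6 mice kept on standard chow for 12 days and served every array. The design text speaks of 24 mice in arms of 6, so each group here is represented by 2 of its mice, each described as a single animal. The p-values rest on a single spread within groups, estimated over all 6 arrays. As deposited, that spread holds differences between animals and also the displaced values of HFC replicate 2 described below. No chow mouse was hybridised against the pool, so the test against 0 leaves out the spread among chow mice.

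Fenofibrate is a fibrate whose active acid activates the nuclear receptor PPAR alpha (gene Ppara). In rodent liver this receptor binds DNA with the retinoid X receptor at direct repeats and switches on genes for fatty acid uptake, omega-oxidation in microsomes, beta-oxidation in peroxisomes and mitochondria, and ketone body formation. Cholesterol synthesis is controlled by another route, in which sterols keep the transcription factor SREBP2 in the endoplasmic reticulum and so lower the genes of that pathway. The comparison with the chow pool measures diet and drug together.

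All values below are log ratios of mouse over pool as deposited. Their base is not stated and was taken as 2, so that 1 stands for a doubling. On the fenofibrate arrays the mouse RNA carried Cy3 and the pool Cy5, while on the other 4 arrays the dyes were the other way round. Fenofibrate and dye therefore cannot be told apart in any comparison with the HFC or lovastatin arrays. The ratios against the pool also hold any gene-specific dye effect, since no fenofibrate array had the dyes swapped. Mouse over pool is the likely direction on the fenofibrate arrays, because the labels list the mouse first on all arrays. Each was also compared with the mean of the other fenofibrate array, HFC replicate 1 and lovastatin replicate 2. There r lay between 0.379 and 0.481 in each of 8 blocks of the array. That mean holds an array with the same dye order, so r cannot settle the direction. The corner control spots, whose signal depends on the dye, read 4.83 and 4.95 on the fenofibrate arrays and between -9.71 and -4.20 on the other 4. Spot values had medians between -0.01 and 0.03, and their SD was 0.469 and 0.570 on the fenofibrate arrays. The largest SD was that of lovastatin replicate 1, at 1.089. On HFC replicate 2, 4 of the 8 blocks of the array held values displaced along the rows (49.2% of the probes used). Where a spot lay in such a block, the HFC replicate 2 value given below is the one put back in its place. Errors and p-values come from the values as deposited unless the put-back fit is named.

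Of 19211 features with a value on both fenofibrate arrays, 5765 (30% of those features) lay above the pool on both, 5773 (30.1%) lay below it on both, and 7323 (38.1%) lay on opposite sides. At least 1.5-fold above the pool on both arrays were 557 features (2.9%), and at least 1.5-fold below it were 524 (2.73%). The same counts at 2-fold were 168 (0.874%) and 165 (0.859%). The median over all features was 0.00 on each array as deposited, so an even split above and below the pool says nothing about the livers. Counts within gene lists below are to be read beside these shares.

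**Figure D1:**
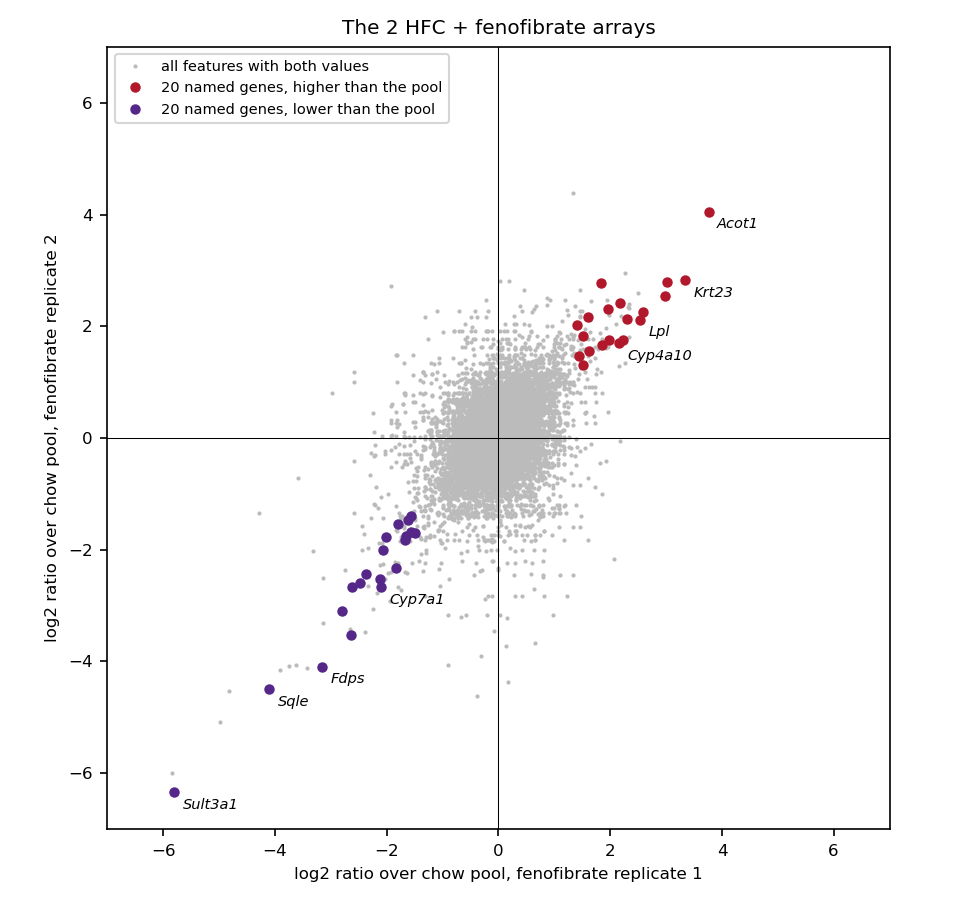
Log2 ratio over the chow pool on fenofibrate replicate 1 (x axis) and fenofibrate replicate 2 (y axis). Grey points are all features with both values, coloured points the 20 genes named in each direction. Sult3a1 (-5.80 and -6.34) and Acot1 (3.76 and 4.05) mark the 2 ends. All 40 named genes lie on the same side of 0 on both arrays because that was a condition of their choice.

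In the limma fit over all 6 arrays, 9 of 19470 features passed an adjusted p of 0.05 against the pool (0.0462%), 2 higher (0.0103%) and 7 lower (0.036%). The 6 with a gene name were Acot1 and Cyp4a31, which rose, and Sqle, Sult3a1, Dio1 and Fdps, which fell. All 9 had an adjusted p of 0.0479, and the next genes by p were Fabp2 (adjusted p = 0.0532), Cyp8b1 (0.0608), Gnmt (0.0644), Rdh11 (0.0644), Cyp7a1 (0.0828) and Cyp4a14 (0.121). Putting back the displaced blocks of HFC replicate 2, which enter only through the shared estimate of the spread, gave 32 features (0.164%), 7 higher (0.036%) and 25 lower (0.128%), among them all 9. Of those 32, 27 carry a gene name, 7 higher and 20 lower. No feature passed when fenofibrate replicate 1, fenofibrate replicate 2, HFC replicate 1 or HFC replicate 2 was left out, and 7 passed when either lovastatin array was left out. Leaving out either array of the HFC pair gives the same fit against the pool, since the array that remains adds nothing to the spread. The same holds for the lovastatin pair. At an unadjusted p under 0.05 there were 720 features above the pool (3.7%) and 703 below it (3.61%).

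Fatty acid omega-hydroxylases of the Cyp4a family, microsomal enzymes that begin the oxidation of fatty acids from the methyl end, stood among the highest genes on both fenofibrate arrays. Cyp4a31 read 3.01 and 2.79 on the fenofibrate arrays, against 0.59 and 0.55 on the HFC arrays and 1.54 and 0.96 on the lovastatin arrays. It rose 7.46-fold over the pool, with a mean of 2.90 ± 0.16 (SD, n = 2), a 95% interval between 2.35 and 3.45, and an adjusted p of 0.0479 in limma. The fenofibrate arrays were the 2 highest of the 6.

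Cyp4a14 read 2.98 and 2.54 on the fenofibrate arrays, 1.28 and 0.58 on the HFC arrays, and 2.29 and 1.94 on the lovastatin arrays. Its mean of 2.76 passed only with the blocks put back (adjusted p = 0.121 as deposited and 0.0438 put back). The lovastatin arrays lay between the fenofibrate and the HFC arrays for this gene. Cyp4a10 read 2.15 and 1.70 on the fenofibrate arrays, 0.49 and 0.55 on the HFC arrays, and 1.01 and 0.58 on the lovastatin arrays, and missed the threshold in both fits (0.131 and 0.0595). Cyp4a12a read 1.98 and 1.78 on the fenofibrate arrays, 0.53 and 0.82 on the HFC arrays, and 0.79 and 0.71 on the lovastatin arrays, and passed with the blocks put back (0.0481). Members of this family are close in sequence, so a probe for one may also bind transcripts of another.

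Cyp4f14, which hydroxylates leukotrienes and other lipids, read -1.71 and -1.82 on the fenofibrate arrays, -1.0 and -0.80 on the HFC arrays, and -1.68 and -0.71 on the lovastatin arrays. Aldh3a2, the fatty aldehyde dehydrogenase, read 1.19 and 1.53 on the fenofibrate arrays, 0.55 and 0.08 on the HFC arrays, and 0.78 and 0.54 on the lovastatin arrays. Of 15 measured genes of omega-oxidation, 8 lay above the pool on both arrays and 5 below, 5 were at least 1.5-fold above it on both (background 2.9%) and 1 at least 1.5-fold below. The list's median was 0.20 and 0.06, beside 0.00 over all features.

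Acot1, the cytosolic thioesterase that splits long-chain acyl-CoA, was the highest named gene by mean. It read 3.76 and 4.05 on the fenofibrate arrays, 2.48 and 1.48 on the HFC arrays, and 1.89 and 1.63 on the lovastatin arrays. The rise over the pool was 15-fold (mean 3.90 ± 0.21, SD, n = 2, 95% interval between 3.19 and 4.62, limma adjusted p = 0.0479). All 6 arrays lay above the pool, and the fenofibrate arrays lay above the other 4. Close relatives did not share this level: Acot3 read -0.02 and 0.46, Acot4 read 0.53 and 0.00, and Acot5 read 0.45 and -0.36 on the fenofibrate arrays. Acot8, the peroxisomal thioesterase, read 0.68 and 0.58 on the fenofibrate arrays, 0.02 and -0.34 on the HFC arrays, and -0.26 and -0.20 on the lovastatin arrays. Of 28 measured thioesterases and acyl-CoA synthetases, 11 lay above the pool on both arrays and 9 below, shares near the 30% and 30.1% of all features, with a median of 0.08 on each array.

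Peroxisomal beta-oxidation shortens very long chains. Ehhadh, the bifunctional enzyme of this pathway, read 2.34 and 1.81 on the fenofibrate arrays, 1.03 and 0.71 on the HFC arrays, and 0.79 and 0.84 on the lovastatin arrays. Its mean of 2.08 had an adjusted p of 0.222 as deposited and 0.056 with the blocks put back, so it did not pass. Abcd3, a transporter of the peroxisomal membrane, read 0.68 and 1.32 on the fenofibrate arrays, -0.39 and -0.35 on the HFC arrays, and 0.27 and 0.11 on the lovastatin arrays. Ech1, a dienoyl-CoA isomerase, read 1.28 and 0.83 on the fenofibrate arrays, -0.12 and -0.52 on the HFC arrays, and 0.42 and -0.12 on the lovastatin arrays. For Abcd3 and Ech1 both fenofibrate values lay above all 4 of the others.

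Eci2, an enoyl-CoA isomerase, read 0.90 and 1.14 on the fenofibrate arrays, its relative Eci3 read 0.91 and 0.82, and Nudt19, which cleaves coenzyme A, read 0.84 and 0.97. Hsd17b4, the second bifunctional enzyme of peroxisomes, read 0.89 and 0.78. Pxmp2, a channel of the peroxisomal membrane, stood on the other side, at -0.62 and -1.07 on the fenofibrate arrays, -0.64 and -0.56 on the HFC arrays, and -0.70 and -1.0 on the lovastatin arrays. Over the 33 measured peroxisomal genes, 19 lay above the pool on both arrays, 9 below and 5 on opposite sides, and 10 were at least 1.5-fold above it on both (background 2.9%). None passed the adjusted test, while 13 had an unadjusted p under 0.05 above the pool (3.7% of all features) and 2 below it. The median was 0.19 and 0.37.

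Mitochondrial fatty acid oxidation also lay above the pool in most of its members. Acadvl, the very long chain acyl-CoA dehydrogenase, read 1.44 and 1.14 on the fenofibrate arrays, -0.05 and 0.05 on the HFC arrays, and 0.32 and -0.19 on the lovastatin arrays. Hadhb, a subunit of the trifunctional protein, read 1.10 and 1.17 on the fenofibrate arrays, 0.38 and -0.05 on the HFC arrays, and 0.38 and 0.27 on the lovastatin arrays. Acadm, the medium chain dehydrogenase, read 0.89 and 1.21 on the fenofibrate arrays, 0.12 and -0.16 on the HFC arrays, and 0.47 and 0.15 on the lovastatin arrays. In all 3 genes the fenofibrate arrays lay above every other array.

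The carnitine shuttle split. Slc25a20, the carnitine-acylcarnitine carrier, read 1.17 and 0.97 on the fenofibrate arrays, 0.46 and -0.41 on the HFC arrays, and 0.47 and 0.27 on the lovastatin arrays. Cpt2, the inner membrane carnitine palmitoyltransferase, read 0.75 and 0.97 on the fenofibrate arrays, 0.37 and -0.03 on the HFC arrays, and 0.48 and 0.30 on the lovastatin arrays. Cpt1a, the rate-limiting step at the outer membrane, read -0.43 and -0.02 on the fenofibrate arrays, 0.07 and 0.06 on the HFC arrays, and 0.27 and -0.31 on the lovastatin arrays. Its mean of -0.22 had a 95% interval between -0.80 and 0.35, which covers changes in both directions. Acadl (0.55 and 0.92), Etfdh (0.72 and 0.77) and Acad12 (0.77 and 1.40), all dehydrogenases of the pathway, stood above the pool on both fenofibrate arrays.

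Of 26 measured genes of mitochondrial fatty acid oxidation, 17 lay above the pool on both arrays, 3 below and 6 on opposite sides. At least 1.5-fold above it on both were 8, none was 1.5-fold below, and none passed the adjusted test. The medians were 0.42 and 0.60 on the fenofibrate arrays, 0.05 and -0.12 on the HFC arrays with the blocks put back, with 0.18 and -0.06 on the lovastatin arrays. Fenofibrate values lay above all 4 other arrays for 14 of the 25 members with 6 values after put-back, where 9.8% of all features did so, and for 13 of 26 as deposited, where 9.43% did so. Fenofibrate and dye cannot be told apart in these counts. For the peroxisomal list the counts were 12 of 32 put back and 13 of 33 as deposited, and for omega-oxidation 6 of 15 and 5 of 15.

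**Figure D2:**
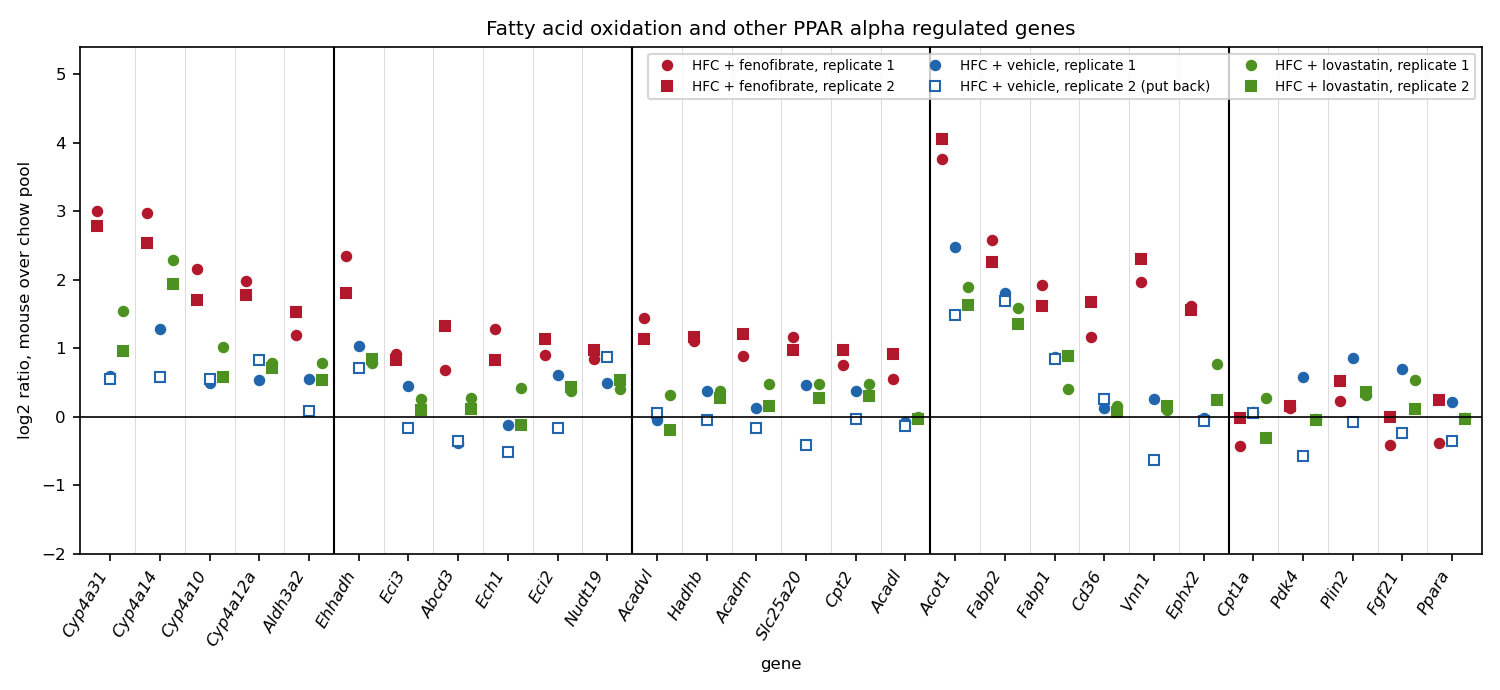
Log2 ratio over the chow pool of 28 genes on each array, fenofibrate left of HFC and lovastatin within each gene. Circles are replicate 1, squares replicate 2, and open squares HFC replicate 2 with displaced blocks put back. Panels from left are omega-oxidation, peroxisomal and mitochondrial oxidation, other regulated genes, and genes near 0. Acot1 reaches 3.76 and 4.05, while Cpt1a, Pdk4, Plin2, Fgf21 and Ppara stay between -0.43 and 0.52 on the fenofibrate arrays.

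Ketone body genes stayed near the pool. Of 5 measured, 3 lay above it on both arrays and 1 below, none was 1.5-fold away on both, and the medians were 0.09 and 0.08. Bdh1, which makes beta-hydroxybutyrate, read 0.09 and 0.15, and Acat1, the mitochondrial acetoacetyl-CoA thiolase, read 0.37 and 0.08. Slc16a1, a carrier of ketone bodies and lactate, read 0.38 and 0.61 on the fenofibrate arrays, 0.37 and 0.39 on the HFC arrays, and 0.26 and 0.35 on the lovastatin arrays.

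Fatty acid binding and uptake held some of the highest genes. Fabp2, the intestinal-type binding protein, read 2.58 and 2.26 on the fenofibrate arrays, 1.80 and 1.69 on the HFC arrays, and 1.58 and 1.35 on the lovastatin arrays. Its 5.35-fold excess over the pool lay just outside the threshold as deposited (adjusted p = 0.0532) and passed with the blocks put back (0.0318). Fabp1, the liver binding protein, read 1.92 and 1.62 on the fenofibrate arrays, 0.87 and 0.84 on the HFC arrays, and 0.40 and 0.89 on the lovastatin arrays. Cd36, a fatty acid receptor of the plasma membrane, read 1.17 and 1.67 on the fenofibrate arrays, 0.12 and 0.26 on the HFC arrays, and 0.15 and 0.07 on the lovastatin arrays. For Cd36 the lowest fenofibrate value was well above the highest value of the other 4.

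Lpl, the lipase that frees fatty acids from plasma triglyceride, read 2.54 and 2.12 on the fenofibrate arrays, 1.92 and 1.70 on the HFC arrays, and 0.68 and 1.29 on the lovastatin arrays (adjusted p = 0.121). Fabp5, the epidermal binding protein, stood below the pool, at -1.66 and -1.75 on the fenofibrate arrays, -0.60 on HFC replicate 1, and -1.03 and -1.31 on the lovastatin arrays. Of the 15 measured members, 8 lay above the pool on both arrays and 4 below, and 5 were at least 1.5-fold above it on both and 2 at least 1.5-fold below.

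Regulated genes outside oxidation were mixed. Vnn1, a pantetheinase, read 1.96 and 2.31 on the fenofibrate arrays, 0.26 and -0.63 on the HFC arrays, and 0.09 and 0.16 on the lovastatin arrays. Ephx2, the soluble epoxide hydrolase, read 1.62 and 1.56 on the fenofibrate arrays, -0.02 and -0.06 on the HFC arrays, and 0.77 and 0.24 on the lovastatin arrays. Retsat, a retinol saturase, read 2.16 and 1.29 on the fenofibrate arrays, 0.70 and 0.55 on the HFC arrays, and 1.38 and 0.63 on the lovastatin arrays. For Vnn1 and Ephx2 the fenofibrate arrays stood clear of the rest, whereas for Retsat the second fenofibrate array lay below lovastatin replicate 1.

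Several genes often used as readouts of the receptor lay near the pool. Pdk4, the kinase that blocks pyruvate oxidation, read 0.13 and 0.16, Plin2, a lipid droplet coat protein, read 0.23 and 0.52, and Fgf21, a liver hormone of fasting, read -0.41 and 0.00 on the fenofibrate arrays. Ppara itself read -0.39 and 0.25. For Plin2 the 95% interval lay between -0.46 and 1.21 and for Pdk4 between -0.60 and 0.89, so moderate changes of these 2 genes were not detectable with 2 arrays. Angptl4, an inhibitor of lipoprotein lipase, read -1.46 and -0.98 on the fenofibrate arrays, 0.83 and 0.15 on the HFC arrays, and -1.03 and -1.64 on the lovastatin arrays. Its mean of -1.22 did not pass the adjusted test (adjusted p = 0.376), and the HFC arrays were the 2 above the pool. In the whole list of 40 measured regulated genes outside oxidation, 19 lay above the pool on both arrays and 14 below, 7 were at least 1.5-fold above it on both and 7 below, and the medians were 0.09 and 0.03.

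Among lipid droplet and lipolysis genes, Mogat1, a monoacylglycerol acyltransferase, read 2.34 and 2.40 on the fenofibrate arrays, -0.55 and 0.47 on the HFC arrays, and -0.66 and -0.22 on the lovastatin arrays. Cidec, which enlarges droplets, read 0.87 and 1.82 on the fenofibrate arrays, 0.90 and 0.28 on the HFC arrays, and 2.06 and 0.21 on the lovastatin arrays, so its groups overlapped. Plin5, a coat protein of droplets beside mitochondria, read 0.94 and 1.20 on the fenofibrate arrays, 1.43 and 1.28 on the HFC arrays, and 1.73 and 0.77 on the lovastatin arrays. Mgll, the monoacylglycerol lipase, read 0.84 and 0.66 on the fenofibrate arrays, 0.14 and 0.10 on the HFC arrays, and 0.24 and 0.31 on the lovastatin arrays. The 29 measured members had medians of 0.11 and 0.09, with 16 above the pool on both arrays and 8 below.

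Genes of cholesterol synthesis formed the lowest group. All 7 measured genes of the mevalonate arm and all 12 measured genes between squalene and cholesterol lay below the pool on both fenofibrate arrays (30.1% of all features did so), and 6 and 11 of them at least 1.5-fold (background 2.73%). The medians of the mevalonate arm were -2.39 and -3.31 on the fenofibrate arrays, -2.45 and -2.20 on the HFC arrays with the blocks put back, with -2.50 and -1.91 on the lovastatin arrays. Those of the later steps were -1.90 and -2.34 on the fenofibrate arrays, -2.08 and -1.80 on the HFC arrays put back, with -1.88 and -1.86 on the lovastatin arrays. The HFC and lovastatin arrays were thus low as well. In the fit as deposited 1 gene of each arm passed the adjusted test as lower (0.036% of all features). With the blocks put back 3 of the mevalonate arm and 5 of the later steps passed as lower (0.128%).

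Sqle, squalene epoxidase, read -4.10 and -4.49 on the fenofibrate arrays, -3.48 and -3.06 on the HFC arrays, and -3.54 and -3.20 on the lovastatin arrays. It fell 19.6-fold below the pool (mean -4.30 ± 0.28, SD, n = 2, 95% interval between -4.85 and -3.74, limma adjusted p = 0.0479), and the fenofibrate arrays were the 2 lowest. Fdps, farnesyl diphosphate synthase, read -3.16 and -4.09 on the fenofibrate arrays, -3.38 and -3.69 on the HFC arrays, and -3.31 and -2.94 on the lovastatin arrays. It fell 12.3-fold (mean -3.62 ± 0.66, SD, n = 2, limma adjusted p = 0.0479), and its groups overlapped. The difference between fenofibrate and HFC arrays was -1.02 for Sqle (95% interval between -1.82 and -0.23) and -0.09 for Fdps (between -1.08 and 0.90), and neither passed the adjusted test.

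Idi1, the isomerase of isopentenyl diphosphate, read -4.83 and -4.52 on the fenofibrate arrays, -4.48 and -4.27 on the HFC arrays, and -4.83 and -4.08 on the lovastatin arrays. Msmo1, the sterol C4-methyl oxidase, read -3.75 and -4.08 on the fenofibrate arrays, -3.75 and -4.13 on the HFC arrays, and -3.68 and -3.56 on the lovastatin arrays. Hmgcs1, the cytosolic HMG-CoA synthase, read -3.14 and -3.31 on the fenofibrate arrays, -3.67 on HFC replicate 1, and -3.28 and -3.43 on the lovastatin arrays. These 3 genes missed the threshold as deposited (adjusted p = 0.344, 0.336 and 0.296) and passed with the blocks put back (0.0193, 0.0193 and 0.0325). Their spots lay in displaced blocks, whose deposited HFC replicate 2 values belong to other genes. With the displaced values set to missing instead, 0 features passed (lowest adjusted p = 0.0501 in limma).

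Dhcr7, the last reductase of the pathway, read -2.66 and -3.41 on the fenofibrate arrays, -3.10 and -3.02 on the HFC arrays, and -3.10 and -3.02 on the lovastatin arrays, and passed put back (adjusted p = 0.0318). So did Tm7sf2, a sterol reductase, at -2.75 and -2.36 on the fenofibrate arrays (0.0318), and Hsd17b7, a ketosteroid reductase, at -1.98 and -2.42 (0.0344). Pmvk (-1.79 and -2.66), Mvd (-2.39 and -3.47), Nsdhl (-1.82 and -2.33), Sc5d (-1.79 and -2.23) and Ebp (-1.29 and -1.77), enzymes of the same route, missed the threshold in both fits. Ggps1, which leads away from sterols to geranylgeranyl diphosphate, read -0.22 and -0.02 and was the only mevalonate gene measured that was not 1.5-fold below the pool on both arrays.

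Promoter letters of this group are shown because its members lay low together. RefSeq promoters of GRCm38.p6 were matched by symbol for 16 of the 19 measured genes, and the 250 bases before the gene start were searched on both strands. Within a list a gene counted if any of its promoters held the motif, whereas the share of all promoters counts each promoter. Genes with several promoters thus raise the list shares relative to that share. A CCAAT box, written CCAAT, was present in all 16 of the matched genes, in 49.2% of 59 matched genes of fatty acid oxidation and in 33.8% of all 32851 promoters. A sterol regulatory element written TCACNCCAC was present in 1 of the 16, Hmgcs1, and in 1.05% of all promoters. Fabp1 was the single gene among 11 matched uptake and binding genes with a direct repeat, made of AGGNCA and a further AGGNCA with 1 base of any kind between, the type of site to which PPAR alpha and the retinoid X receptor bind, and 0.338% of all promoters held it. No gene of the 59 of fatty acid oxidation held that repeat in this window. These are matches of letters in a short window, in which CCAAT is common, and they show no binding. The motifs were chosen with the values known. Capitals below mark the CCAAT boxes of Idi1 (chr13:8885356-8885605, plus strand), Msmo1 (chr8:64733579-64733828, minus strand) and Hmgcs1 (chr13:119690101-119690350, plus strand), the sterol element of Hmgcs1, and the direct repeat of Fabp1 (chr6:71199629-71199878, plus strand). A match on the opposite strand is printed as its reverse complement, so that a CCAAT box there appears as ATTGG, and the repeat of Fabp1 is also of this kind.
Idi1: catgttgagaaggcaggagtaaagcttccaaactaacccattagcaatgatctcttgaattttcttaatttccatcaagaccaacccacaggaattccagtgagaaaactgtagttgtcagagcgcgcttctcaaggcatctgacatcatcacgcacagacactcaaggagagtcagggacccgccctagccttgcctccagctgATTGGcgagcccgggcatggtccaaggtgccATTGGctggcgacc
Msmo1: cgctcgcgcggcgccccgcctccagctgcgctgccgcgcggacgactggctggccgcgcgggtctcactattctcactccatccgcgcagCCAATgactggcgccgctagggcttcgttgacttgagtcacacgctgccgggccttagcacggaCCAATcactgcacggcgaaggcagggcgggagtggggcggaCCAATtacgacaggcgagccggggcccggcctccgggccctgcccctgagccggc
Hmgcs1: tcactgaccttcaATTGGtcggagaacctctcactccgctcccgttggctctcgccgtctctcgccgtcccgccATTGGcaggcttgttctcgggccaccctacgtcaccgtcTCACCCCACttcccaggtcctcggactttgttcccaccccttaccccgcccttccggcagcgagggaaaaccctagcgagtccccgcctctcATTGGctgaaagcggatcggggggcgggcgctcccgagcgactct
Fabp1: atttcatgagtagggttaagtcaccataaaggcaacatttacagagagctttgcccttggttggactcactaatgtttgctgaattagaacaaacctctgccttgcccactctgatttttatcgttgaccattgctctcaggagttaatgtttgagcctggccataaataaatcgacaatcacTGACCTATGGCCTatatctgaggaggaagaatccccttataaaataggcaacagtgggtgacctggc
In Idi1 the 2 boxes begin 45 and 14 bases before the start. Msmo1 has 3, at 160, 96 and 55 bases, and Hmgcs1 has 3, at 237, 176 and 45 bases, with the sterol element at 137 bases. The repeat of Fabp1 begins 67 bases before the start. Idi1, Msmo1 and Hmgcs1 are the genes given above at means of -4.68, -3.92 and -3.22, and Fabp1 stood at 1.77.

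Regulators of sterol level were closer to the pool. Srebf2, which encodes SREBP2, read -0.89 and -1.29 on the fenofibrate arrays, -0.92 on HFC replicate 1, and -0.37 and -0.61 on the lovastatin arrays. Insig1, which retains SREBP2 in the endoplasmic reticulum and is itself one of its targets, read -1.03 and -2.23 on the fenofibrate arrays, -2.95 and -1.57 on the HFC arrays, and -2.39 and -1.45 on the lovastatin arrays. Its relative Insig2 read 0.95 and 1.17 on the fenofibrate arrays, 2.02 and 1.94 on the HFC arrays, and 1.30 and 1.03 on the lovastatin arrays, with the HFC arrays highest. Of 16 measured regulators and uptake genes, 7 lay above the pool on both arrays (30% of all features) and 7 below (30.1%).

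Of 13 measured sterol efflux genes, 6 lay above the pool on both arrays (30% of all features), 4 below (30.1%) and 3 on opposite sides. At least 1.5-fold above it on both were 4, and 1, the phospholipid transfer protein Pltp, was at least 1.5-fold below. Pltp read -0.84 and -1.06 on the fenofibrate arrays, -0.87 and -0.91 on the HFC arrays, and -0.17 and -0.66 on the lovastatin arrays. Abcg5, a subunit of the biliary sterol transporter, read 1.58 and 1.05 on the fenofibrate arrays, 1.26 and 1.33 on the HFC arrays, and 1.45 and 1.07 on the lovastatin arrays. Its partner Abcg8 read 1.18 and -0.01 on the fenofibrate arrays, so its 2 arrays disagreed. Abcg1, an exporter of cholesterol to lipoproteins, read 1.35 and 1.33 on the fenofibrate arrays, 0.22 and 0.38 on the HFC arrays, and 0.69 and 0.11 on the lovastatin arrays. Abca1, the exporter that loads nascent high-density lipoprotein, read 0.55 and 2.03 on the fenofibrate arrays, 0.13 and -0.23 on the HFC arrays, and 0.82 and 0.49 on the lovastatin arrays, with a wide gap between its fenofibrate arrays.

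In lipogenesis, 16 of 29 measured genes lay below the pool on both arrays (30.1% of all features) and 6 above (30%). At least 1.5-fold below it on both were 9 (background 2.73%), and none was 1.5-fold above. Acly, which makes cytosolic acetyl-CoA, read -1.84 and -2.32 on the fenofibrate arrays, -1.67 and -1.46 on the HFC arrays, and -0.92 and -1.34 on the lovastatin arrays. Acss2, which makes it from acetate, read -2.50 and -2.58 on the fenofibrate arrays, -2.21 and -2.96 on the HFC arrays, and -2.55 and -2.28 on the lovastatin arrays, and passed put back (adjusted p = 0.0439). For Acly the fenofibrate arrays were the lowest, while for Acss2 all groups lay together.

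Fasn, fatty acid synthase, read -1.64 and -2.41 on the fenofibrate arrays, -2.01 and -0.35 on the HFC arrays, and -2.21 and -0.74 on the lovastatin arrays. Thrsp, a lipogenic regulator, read -1.93 and -2.39 on the fenofibrate arrays, -1.27 and 0.45 on the HFC arrays, and -2.39 and -1.20 on the lovastatin arrays. The HFC and lovastatin pairs were far apart for both genes. Scd1, the delta-9 desaturase, read 1.14 and 0.13, and Srebf1, the lipogenic transcription factor, read 0.64 and -0.26, so neither had a common level on the fenofibrate arrays. The list's medians were -0.25 and -0.72 on the fenofibrate arrays, -0.33 and 0.05 on the HFC arrays put back, with -0.50 and -0.35 on the lovastatin arrays.

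In bile acid synthesis, Cyp7a1 and Cyp8b1 lay below the pool on every array. Cyp7a1, the rate-limiting enzyme, read -2.11 and -2.67 on the fenofibrate arrays, -1.67 and -1.40 on the HFC arrays, and -1.96 and -2.16 on the lovastatin arrays. Cyp8b1, which directs synthesis to cholic acid, read -2.81 and -3.09 on the fenofibrate arrays, -2.79 and -2.58 on the HFC arrays, and -3.18 and -2.42 on the lovastatin arrays. Both lay just outside the threshold as deposited (adjusted p = 0.0828 and 0.0608) and passed with the blocks put back (0.0431 and 0.0329). Abcb11, the bile salt export pump, read 0.73 and 0.90 on the fenofibrate arrays, 1.58 and 1.64 on the HFC arrays, and 0.57 and 1.10 on the lovastatin arrays. Of 32 measured genes of this list, 17 lay below the pool on both arrays (30.1% of all features) and 11 above (30%).

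**Figure D3:**
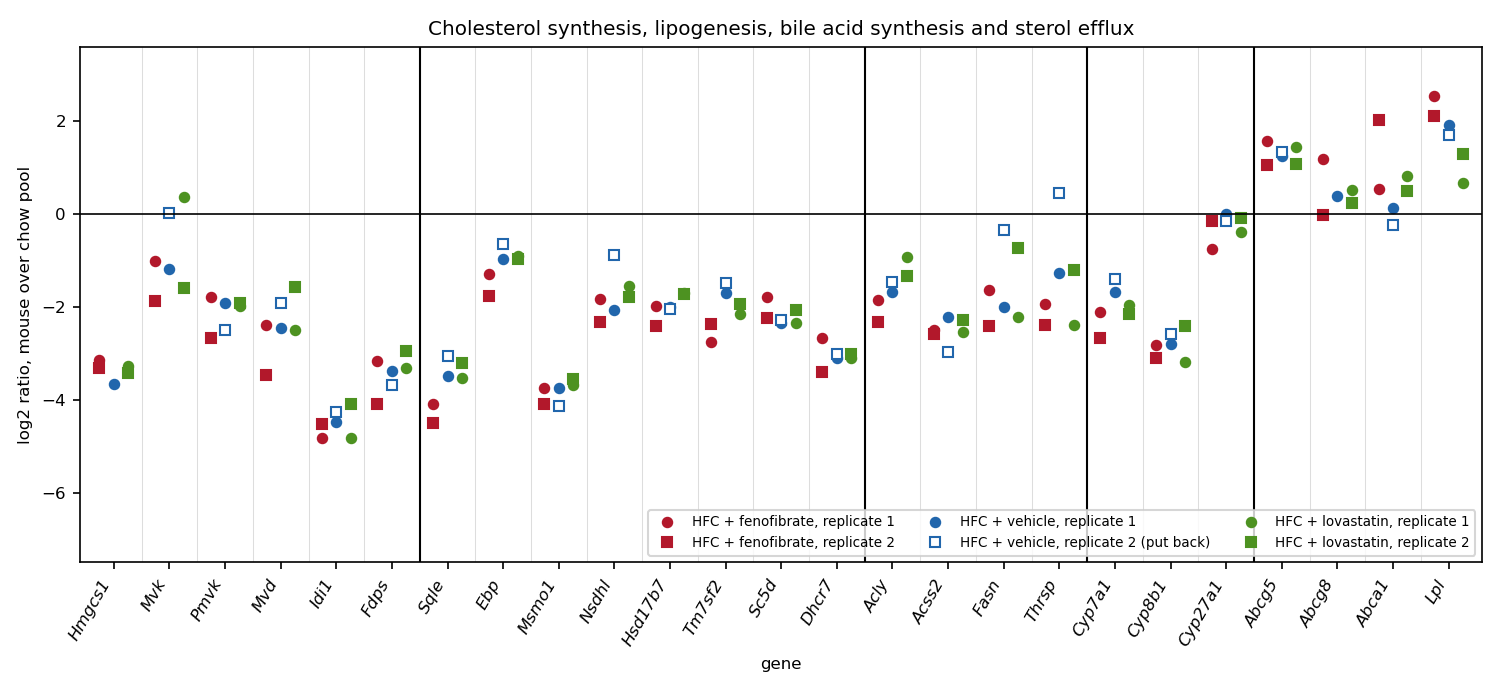
Log2 ratio over the chow pool of 25 genes on each array, fenofibrate left of HFC and lovastatin within each gene. Circles are replicate 1, squares replicate 2, and open squares HFC replicate 2 with displaced blocks put back, absent where no value was left. Panels from left are the mevalonate arm, later cholesterol synthesis, lipogenesis, bile acid synthesis, and efflux genes with Lpl. Sqle reads -4.10 and -4.49 on the fenofibrate arrays, and most cholesterol genes overlap between groups.

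Sult3a1, a sulfotransferase that is higher in female mouse liver, was the lowest named gene. It read -5.80 and -6.34 on the fenofibrate arrays, -4.91 and -3.50 on the HFC arrays, and -5.46 and -4.88 on the lovastatin arrays, a 67.2-fold fall below the pool in the fenofibrate mice (limma adjusted p = 0.0479). Sult1e1, the estrogen sulfotransferase, read -2.62 and -2.67 on the fenofibrate arrays, -2.19 and -0.96 on the HFC arrays, and -2.49 and -2.14 on the lovastatin arrays. Sult2a8, which sulfates bile acids, read -2.33 and -1.96 on the fenofibrate arrays, -3.28 and -3.95 on the HFC arrays, and -3.43 and -2.91 on the lovastatin arrays, so there the fenofibrate arrays were the highest. Of 13 measured sulfotransferase genes, 8 lay below the pool on both arrays, 2 above, and 5 at least 1.5-fold below.

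Dio1, the deiodinase that activates thyroid hormone in liver, read -2.37 and -2.44 on the fenofibrate arrays, -2.35 and -2.46 on the HFC arrays, and -2.25 and -2.21 on the lovastatin arrays. It fell 5.3-fold (mean -2.41 ± 0.05, SD, n = 2, limma adjusted p = 0.0479), and its difference from the HFC arrays was 0.00 (95% interval between -0.63 and 0.63). Rdh11, a retinal reductase, read -2.48 and -2.59 on the fenofibrate arrays, -2.58 and -2.25 on the HFC arrays, and -3.21 and -2.66 on the lovastatin arrays, and passed put back (adjusted p = 0.0341). Ttr, which carries thyroid hormone and retinol-binding protein in plasma, read -1.31 and -1.28 on the fenofibrate arrays, -0.72 and -0.69 on the HFC arrays, and -0.59 and -0.65 on the lovastatin arrays.

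Mup5, a major urinary protein driven by growth hormone, read -3.91 and -4.15 on the fenofibrate arrays, -2.37 and -3.17 on the HFC arrays, and -2.69 and -2.37 on the lovastatin arrays. It passed only with the blocks put back (adjusted p = 0.031). Near-identical copies of this family may share its probe. Igfbp1, a binding protein of insulin-like growth factors, read -1.95 and -2.92 on the fenofibrate arrays, -0.92 and -2.09 on the HFC arrays, and -2.67 and -4.05 on the lovastatin arrays.

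Among drug-metabolising cytochromes, Cyp3a25 read 1.61 and 2.17 on the fenofibrate arrays, 2.13 and 1.92 on the HFC arrays, and 1.16 and 1.22 on the lovastatin arrays. Cyp3a41a read 1.40 and 2.03 on the fenofibrate arrays, 1.31 and 1.12 on the HFC arrays, and 0.34 and 0.65 on the lovastatin arrays. Cyp2c40 read -1.62 and -1.47 on the fenofibrate arrays, -0.86 and -0.93 on the HFC arrays, and -1.07 and -0.87 on the lovastatin arrays. Of 37 measured genes, 10 lay above the pool on both arrays (30% of all features) and 18 below (30.1%). Ephx1, the microsomal epoxide hydrolase, read 1.52 and 1.30 on the fenofibrate arrays, 1.34 and 1.51 on the HFC arrays, and 1.08 and 1.30 on the lovastatin arrays. Gclc, the catalytic subunit of glutathione synthesis, read 1.51 and 1.35 on the fenofibrate arrays, 1.57 and 1.06 on the HFC arrays, and 1.20 and 1.63 on the lovastatin arrays. Both genes lay above the pool on all 6 arrays, with overlapping groups.

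Gstm1, a glutathione S-transferase, stood at 2.11 and 2.05 on the fenofibrate arrays, 2.52 and 2.87 on the HFC arrays, and 0.91 and 2.38 on the lovastatin arrays. Of 30 measured glutathione and glucuronosyl transferases, 16 lay above the pool on both arrays and 9 below, and 8 were at least 1.5-fold above it. Among 27 measured genes of oxidative stress, 19 lay above the pool on both arrays and 5 below. The metallothionein Mt1 read -1.27 and -1.43 on the fenofibrate arrays, -0.05 and 1.08 on the HFC arrays, and -2.28 and -2.91 on the lovastatin arrays.

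Amino acid catabolism lay below the pool in most members: 26 of 45 measured genes were below it on both arrays and 5 above, 12 were at least 1.5-fold below on both and 1 above. Gnmt, which consumes S-adenosylmethionine, read -2.13 and -2.53 on the fenofibrate arrays, -1.01 and -1.26 on the HFC arrays, and -1.08 and -0.98 on the lovastatin arrays. It passed put back (adjusted p = 0.0644 as deposited and 0.0329 put back), and its fenofibrate values stood clear of the other 4. Bhmt, which remethylates homocysteine, read -1.67 and -1.83 on the fenofibrate arrays, -1.66 and -2.09 on the HFC arrays, and -1.97 and -2.18 on the lovastatin arrays, without any separation. Oat, ornithine aminotransferase, read -2.41 and -1.72 on the fenofibrate arrays, -1.06 and -1.41 on the HFC arrays, and -0.77 and -0.89 on the lovastatin arrays.

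In glucose metabolism, G6pc, the last enzyme of glucose output, read -2.17 and -2.78 on the fenofibrate arrays, -0.19 and -1.34 on the HFC arrays, and -1.34 and -1.32 on the lovastatin arrays. Pck1, the cytosolic carboxykinase, read -2.22 and -1.18 on the fenofibrate arrays, 0.41 and 0.64 on the HFC arrays, and -0.61 and -1.99 on the lovastatin arrays. Ppp1r3g, a glycogen-targeting phosphatase subunit, read -2.06 and -2.25 on the fenofibrate arrays, -2.02 and -1.82 on the HFC arrays, and -2.40 and -2.84 on the lovastatin arrays, and passed put back (adjusted p = 0.0438). Of 29 measured genes, 14 lay below the pool on both arrays and 7 above, and 6 were at least 1.5-fold below.

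Genes of proteins that the liver secretes into plasma lay mostly below the pool on both fenofibrate arrays. Of 37 measured coagulation and complement genes, 33 lay below the pool on both arrays, none above it on both and 4 on opposite sides (30.1% of all features lay below on both), and 11 were at least 1.5-fold below. The medians were -0.44 and -0.52 on the fenofibrate arrays, -0.12 and -0.10 on the HFC arrays put back, with -0.01 and -0.09 on the lovastatin arrays. Fenofibrate values lay below all 4 other arrays for 23 of 35 members put back (10.9% of all features) and for 22 of 37 as deposited (10.1%). No member passed the adjusted test, and 17 had an unadjusted p under 0.05, all below the pool (3.61% of all features).

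F2, prothrombin, read -1.0 and -1.19 on the fenofibrate arrays, 0.10 and 0.51 on the HFC arrays, and 0.34 and 0.21 on the lovastatin arrays. Vtn, vitronectin, read -1.23 and -0.92 on the fenofibrate arrays, 0.05 and -0.25 on the HFC arrays, and 0.17 and 0.23 on the lovastatin arrays. Fgb, a fibrinogen chain, read -0.92 and -1.82 on the fenofibrate arrays, 0.37 and 0.49 on the HFC arrays, and 0.38 and -0.03 on the lovastatin arrays. All 3 were near or above the pool without fenofibrate. F11, a factor of the contact pathway, was below it in every group, at -1.83 and -1.65 on the fenofibrate arrays, -1.02 on HFC replicate 1, and -0.93 and -1.22 on the lovastatin arrays.

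Apolipoprotein and lipoprotein genes had 16 of 27 measured members below the pool on both arrays and 7 above, with 9 at least 1.5-fold below and 2 above. Apoh, beta-2 glycoprotein I, read -1.33 and -1.29 on the fenofibrate arrays, -0.11 and -0.15 on the HFC arrays, and -0.26 and -0.38 on the lovastatin arrays. Apof, a regulator of lipid transfer, read -1.26 and -1.52 on the fenofibrate arrays, -0.47 and -0.45 on the HFC arrays, and -0.38 and -0.64 on the lovastatin arrays. Apoc3, which slows clearance of triglyceride-rich particles, read -1.35 and -1.39 on the fenofibrate arrays, -0.68 and -0.17 on the HFC arrays, and -0.42 and -0.80 on the lovastatin arrays. In these 3 genes the fenofibrate arrays were the lowest.

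Apoa2, a protein of high-density lipoprotein, read -1.01 and -0.87 on the fenofibrate arrays, -0.15 and -0.35 on the HFC arrays, and -0.14 and -0.33 on the lovastatin arrays. Apoa1, the main protein of the same particle, read -0.39 and -1.16 on the fenofibrate arrays, -0.53 and -0.80 on the HFC arrays, and -0.07 and -0.78 on the lovastatin arrays, and overlapped. Apoa5, an activator of triglyceride hydrolysis, read -0.08 and 0.08 on the fenofibrate arrays, 0.24 and 0.40 on the HFC arrays, and 0.43 and 0.30 on the lovastatin arrays. Fenofibrate values lay below all 4 other arrays for 13 of 26 members of the list put back (10.9% of all features) and 12 of 27 as deposited (10.1%).

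In the acute phase and hepatokine list, 20 of 32 measured genes lay below the pool on both arrays and 6 above. Ahsg, fetuin A, read -1.55 and -2.23 on the fenofibrate arrays, -0.86 and -0.50 on the HFC arrays, and -0.48 and -0.70 on the lovastatin arrays. Hamp, the iron hormone hepcidin, read -2.06 and -2.56 on the fenofibrate arrays, -0.90 and -2.24 on the HFC arrays, and -0.36 and -0.56 on the lovastatin arrays, so HFC replicate 2 lay within the fenofibrate range. Saa1, a serum amyloid, read -0.38 and -0.90 on the fenofibrate arrays, -0.21 and -0.33 on the HFC arrays, and 1.78 and -0.23 on the lovastatin arrays. Its relative Saa2 read -0.72 and -1.31 on the fenofibrate arrays, -0.48 and -0.57 on the HFC arrays, and 1.71 and -0.51 on the lovastatin arrays, so lovastatin replicate 1 stood apart for both.

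**Figure D4:**
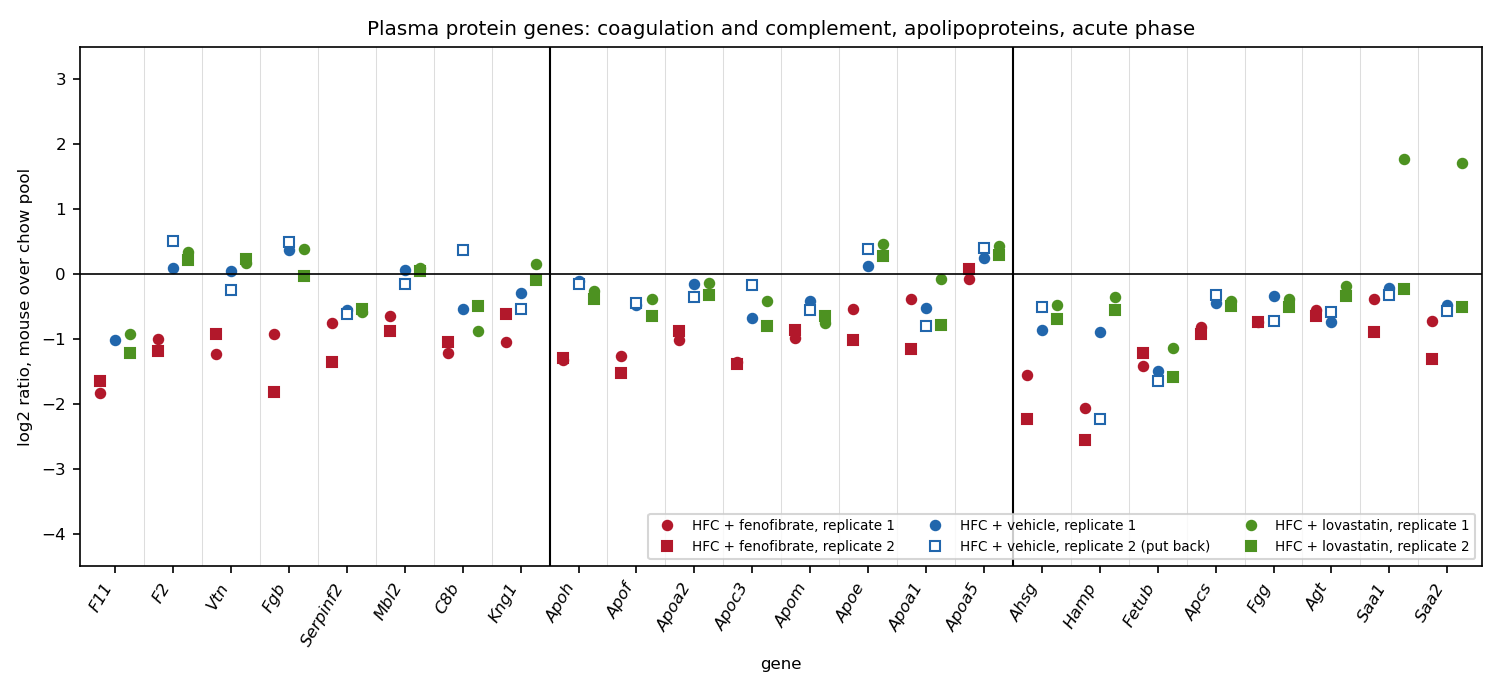
Log2 ratio over the chow pool of 24 genes on each array, fenofibrate left of HFC and lovastatin within each gene. Circles are replicate 1, squares replicate 2, and open squares HFC replicate 2 with displaced blocks put back, absent where no value was left. Panels from left are coagulation and complement, apolipoproteins, and acute phase genes. F2 reads -1.0 and -1.19 on the fenofibrate arrays and lies above 0 on the other 4.

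Interferon and antigen processing genes lay below the pool on both arrays for 30 of 46 measured members (30.1% of all features) and above it for 4 (30%). At least 1.5-fold below it on both were 10 (background 2.73%), and none was 1.5-fold above. Gbp3, a guanylate-binding protein, read -1.57 and -1.69 on the fenofibrate arrays, -0.89 and -0.89 on the HFC arrays, and -1.32 and -0.98 on the lovastatin arrays. Ifit3, an interferon-induced protein, read -0.80 and -0.90 on the fenofibrate arrays, -0.17 and 0.12 on the HFC arrays, and -0.52 and -0.42 on the lovastatin arrays. The medians were -0.28 and -0.45 on the fenofibrate arrays, -0.13 and -0.22 on the HFC arrays put back, with -0.27 and -0.08 on the lovastatin arrays.

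Markers of other liver cells were set beside these lists. Of 11 measured Kupffer cell and macrophage markers, 8 lay below the pool on both arrays and 1 above, and the medians were -0.38 and -0.76 on the fenofibrate arrays, -0.08 and -0.15 on the HFC arrays put back, with 0.07 and 0.07 on the lovastatin arrays. Marco, a scavenger receptor of macrophages, read -0.68 and -1.43, Cd163 read -0.85 and -1.43, and Clec4f, a lectin of Kupffer cells, read -0.26 and -0.80 on the fenofibrate arrays. The array gives ratios and no levels, and in whole liver fewer cells of a type and less RNA per cell cannot be told apart. Their part in the lower interferon and complement genes was not tested.

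Hepatocyte markers had 5 of 7 measured members below the pool on both arrays and none above, with medians of -0.53 and -0.34 on the fenofibrate arrays, -0.47 and -0.15 on the HFC arrays put back, with -0.59 and -0.50 on the lovastatin arrays. Alb, serum albumin, read -0.63 and -0.80 on the fenofibrate arrays, -0.47 and -0.15 on the HFC arrays, and -1.36 and -0.64 on the lovastatin arrays. Hnf4a, the hepatocyte nuclear factor, read -0.08 and -0.34 on the fenofibrate arrays. Of 7 cholangiocyte markers, 3 lay above the pool on both arrays, with medians of 0.12 and -0.10. Krt23, a keratin that also appears in stressed hepatocytes, read 3.34 and 2.83 on the fenofibrate arrays, 1.76 and 2.10 on the HFC arrays, and 2.27 and 1.65 on the lovastatin arrays, and passed put back (adjusted p = 0.0329). Prom1 read 1.78 and 1.60 on the fenofibrate arrays, while Krt7 (-0.05 and -0.10) and Krt19 (0.23 and -0.36), which define bile ducts, did not share that level.

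Stellate cell markers had 6 of 10 below the pool on both arrays (medians -0.11 and -0.50), lymphocyte markers 6 of 11 (medians -0.14 and -0.11), endothelial markers 2 of 8 (medians 0.18 and -0.30), neutrophil markers 2 of 7 (medians -0.18 and 0.09), adipocyte markers 2 of 5 (medians 0.09 and -0.05) and red blood cell markers 1 of 3 (medians 0.03 and -0.38). Over all features, 30.1% lay below the pool on both arrays. None of these 6 lists had a member past the adjusted threshold.

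Respiratory chain subunits lay slightly above the pool, with 32 of 49 measured genes above it on both arrays and 4 below, and medians of 0.22 and 0.14 on the fenofibrate arrays, 0.04 and 0.01 on the HFC arrays put back, with -0.09 and -0.05 on the lovastatin arrays. Cox4i1, a subunit of cytochrome c oxidase, read 0.61 and 0.82 on the fenofibrate arrays, -0.09 and -0.12 on the HFC arrays, and 0.12 and -0.16 on the lovastatin arrays. Cox5a, another subunit, read 0.56 and 0.58 on the fenofibrate arrays, -0.25 and -0.24 on the HFC arrays, and -0.33 and -0.13 on the lovastatin arrays. Fenofibrate values lay above all 4 other arrays for 22 of 47 members put back (9.8% of all features) and 20 of 49 as deposited. The differences were small: 3 of the 49 were at least 1.5-fold above the pool on both arrays, and no member passed the adjusted test.

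Cell cycle genes were above the pool on both arrays for 31 of 40 measured members and below it for 3, and 17 were at least 1.5-fold above it (background 2.9%). The medians were 0.51 and 0.93 on the fenofibrate arrays, 0.40 and 0.18 on the HFC arrays put back, with 0.22 and 0.66 on the lovastatin arrays. Cdc20, an activator of mitotic exit, read 1.92 and 1.97 on the fenofibrate arrays, 1.43 and 0.58 on the HFC arrays, and 0.84 and 2.28 on the lovastatin arrays, and Aurka, a spindle kinase, read 0.91 and 1.42 on the fenofibrate arrays, 0.62 and 0.64 on the HFC arrays, and 0.88 and 1.20 on the lovastatin arrays. Both overlapped with the lovastatin pair. Clock genes had no member 1.5-fold from the pool on both arrays (medians -0.13 and 0.02), and neither had the unfolded protein response (medians 0.04 and -0.19).

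**Figure D5:**
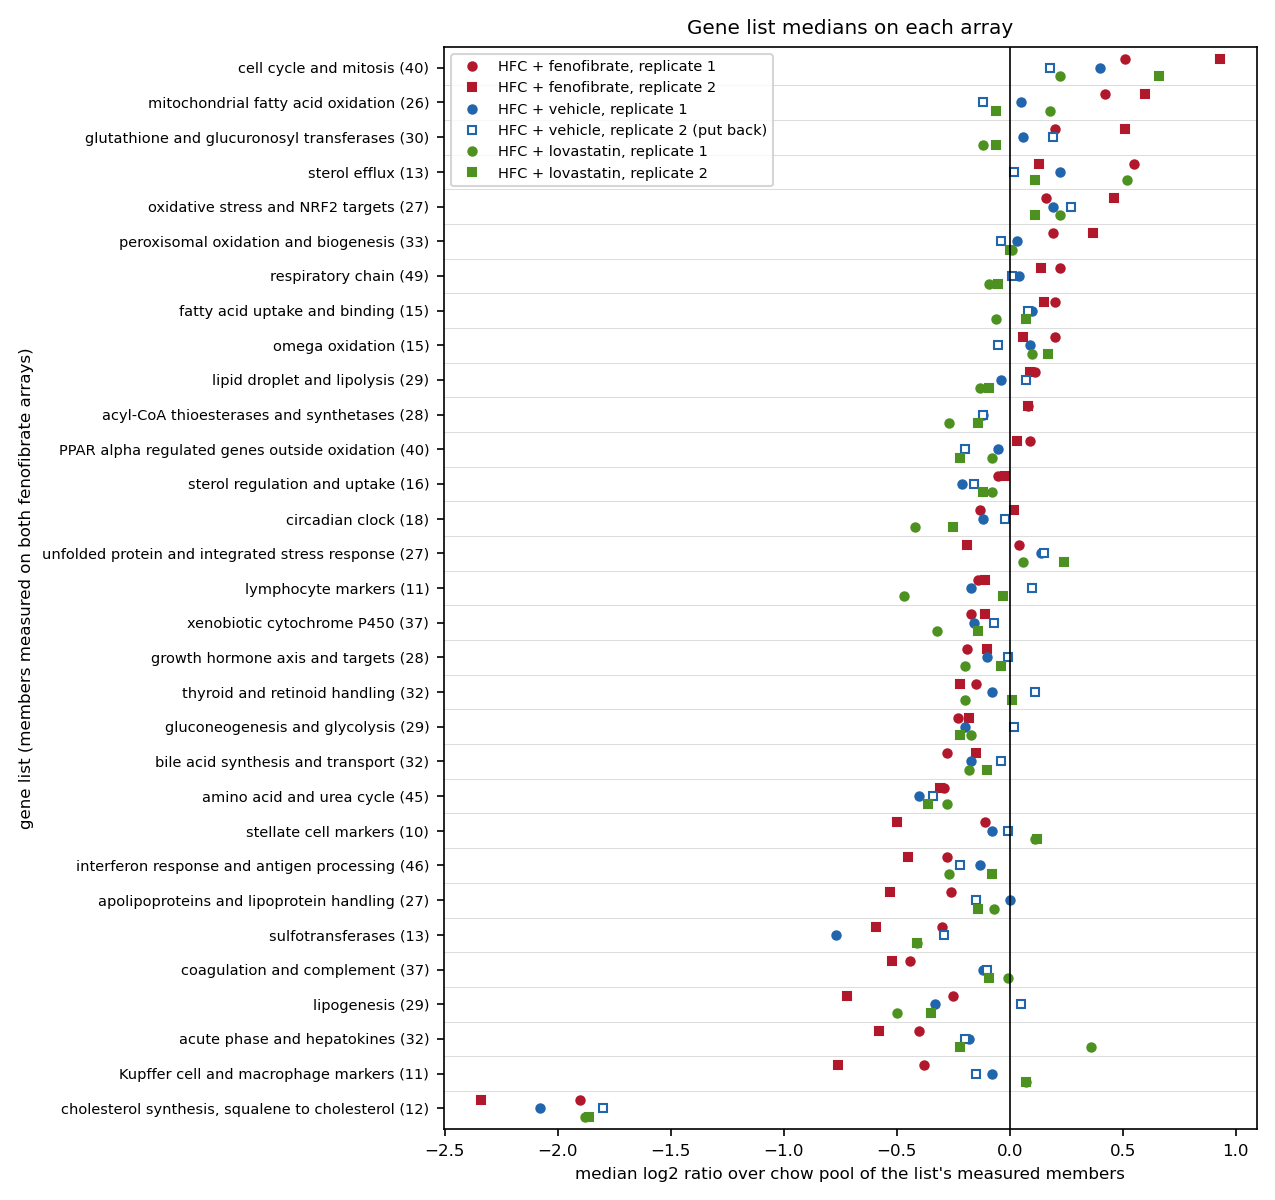
Median log2 ratio over the chow pool (x axis) of each gene list with at least 10 members measured on both fenofibrate arrays, for each of the 6 arrays. Within each list fenofibrate is drawn above HFC and lovastatin, circles are replicate 1, squares replicate 2, and open squares HFC replicate 2 with displaced blocks put back. Cholesterol synthesis after squalene lies near -2 on every array, and the coagulation and complement list lies at -0.44 and -0.52 on the fenofibrate arrays and between -0.12 and -0.01 on the others.

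The design also allows the fenofibrate arrays to be set against the HFC arrays and against the mean of HFC and lovastatin, with the dye difference named above. In limma, 0 of 19470 features passed against HFC (lowest adjusted p = 0.999, and 644 features, 3.31%, at an unadjusted p under 0.05). Against the mean of both groups 0 of 19459 passed (lowest adjusted p = 0.873, and 933 features, 4.79%, unadjusted). With the blocks put back both counts were again 0, with 772 (3.97%) and 1129 (5.8%) features unadjusted. Without HFC replicate 1, where the displaced array alone stands for HFC, 60 features passed against HFC. The genes below are given as values for that reason, with no change claimed.

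Genes were taken here only if both fenofibrate values lay above both HFC values as deposited. The 10 of these with the smallest p were Cyp4a31, Slc39a5, Chst11, Vnn1, Nudt6, Ephx2, Fbp2, Prxl2a, Amn and Cd1d1. Slc39a5, a zinc importer, read 2.22 and 1.75 on the fenofibrate arrays, 0.06 and 0.54 on the HFC arrays, and 0.12 and 0.11 on the lovastatin arrays. Chst11, a chondroitin sulfotransferase, read 1.52 and 1.82 on the fenofibrate arrays, -0.56 and -0.16 on the HFC arrays, and 0.04 and -0.39 on the lovastatin arrays. Amn, a partner of the endocytic receptor cubilin, read 2.30 and 2.13 on the fenofibrate arrays, 0.57 and 0.76 on the HFC arrays, and 0.99 and 0.24 on the lovastatin arrays. Together with Cyp4a31, Vnn1 and Ephx2, these genes stood above every HFC and lovastatin array, though standing above HFC was a condition of their choice.

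Fbp2, the muscle-type fructose bisphosphatase, read 1.15 and 1.49 on the fenofibrate arrays, -0.12 and -0.18 on the HFC arrays, and 0.09 and -0.19 on the lovastatin arrays. Cd1d1, which presents lipid antigens, read 0.18 and 0.31 on the fenofibrate arrays, -1.15 and -0.97 on the HFC arrays, and -1.14 and -0.99 on the lovastatin arrays. Prxl2a, a peroxiredoxin-like protein, read 0.52 and 0.37 on the fenofibrate arrays, -1.25 and -0.87 on the HFC arrays, and -1.10 and -1.27 on the lovastatin arrays. Cd1d1 and Prxl2a were thus low on the diet in both other groups and near the pool with fenofibrate. The differences from HFC as deposited were 2.32 for Vnn1 (95% interval between 1.38 and 3.26), 1.63 for Ephx2 (between 0.90 and 2.36) and 1.30 for Cd1d1 (between 0.66 and 1.95).

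Below HFC, among genes with both fenofibrate values under both HFC values as deposited, the smallest p-values were those of Mro, Hoxd1, Il18rap, F2, 1300017J02Rik, Apoh, Heatr1, Fgl1, Slc12a3 and Ccn2. Mro read -0.66 and -0.70 on the fenofibrate arrays, and 1.17 and -0.30 on the HFC arrays once HFC replicate 2 was put back. Its difference from HFC was -1.72 as deposited and -1.12 put back, with both fenofibrate values below both HFC values. Fgl1, a secreted liver protein, read -1.03 and -1.0 on the fenofibrate arrays, 0.15 and 0.29 on the HFC arrays, and -0.05 and 0.12 on the lovastatin arrays. Slc12a3 lay at -1.34 and -0.94 on the fenofibrate arrays and at 0.44 and -0.77 on the HFC arrays put back, a much narrower gap than the 0.44 and 0.09 as deposited. The solute carriers Slc22a26 (-1.50 and -1.70) and Slc25a25 (-1.56 and -1.40) were also below every HFC and lovastatin array, Slc25a25 at -0.44 and -0.24 on the HFC arrays and -0.34 and -0.48 on the lovastatin arrays.

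The other genes of the rule, given as values, completed both ends. Above the pool were Serinc2 (1.86 and 1.67), Ifi27l2b (1.97 and 1.75), Unc79 (1.84 and 2.78), S100g, a calcium-binding protein (2.17 and 2.41), and Pde4a, a cyclic AMP phosphodiesterase (1.45 and 1.47). Below it were Ppp1r10, a nuclear phosphatase subunit (-2.02 and -1.78), Nr4a1, an orphan nuclear receptor (-2.07 and -2.01), Mpv17l (-1.79 and -1.53) and Tafa2 (-2.64 and -3.53). With the blocks put back, the named genes that passed and have not been given yet were Spc25 at 2.54 above the pool, and Lrtm1 at -3.84, Pon1 at -1.98 and Enho at -2.28 below it.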

How the data were processed

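Liver RNA was measured on 6 arrays of 2 colours, each with 1 mouse against the chow pool after linear amplification of total RNA, per the labels. The deposited log2 values are the authors' log ratios of the 2 channels. No source used here gives their base, their background correction or how arrays were normalized, and base 2 was taken. Groups follow the titles. The protocol text of the lovastatin samples names fenofibrate, while their titles and source names give lovastatin.

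Of 22575 spots, 726 had no value, and 561 control spots, unnamed and repeated, were dropped, leaving 21288 probes. The platform annotation gave 1 symbol to 18658 probes and several to 30, and 3887 spots had none. Probes of a gene were averaged, giving 16887 genes and 2630 unnamed features. The fit was lmFit and eBayes of limma 3.58.1 in R 4.3.3 over all 6 arrays with a mean per group, 3 residual and 2.63 prior degrees of freedom, and Benjamini-Hochberg adjustment over all features at 0.05. The median half-width of the 95% interval was 0.656, a precision set by having 2 arrays a group. The script was tested on simulated data.

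Blocks of each array were checked against the mean of the other arrays, with HFC replicate 2 and lovastatin replicate 1 left out of that mean. On HFC replicate 2, 4 blocks matched best after rotation by 11, 22, 6 and 17 spots along the rows, with r between 0.2986 and 0.3145 there and between -0.0374 and 0.0232 as deposited. This array's displacement was handled by alternatives, beside others on centring, scale, probes, missing values, the prior, the replicate number and left-out arrays.

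Named genes were up to 20 in each direction against the pool, all with the same sign on both arrays. Those past the threshold came first, then those of smallest p. For the other contrasts they were 10 in each direction, taken from genes whose fenofibrate arrays did not overlap the compared arrays as deposited. From each list up to 8 members of smallest p against the pool could be named, and from many lists fewer or none were. Which of these members were given was not set by a rule. The put-back genes and the genes near 0 were chosen after their values were seen. The contrasts and the 39 gene lists, with 814 measured genes, were chosen with earlier results of these data known. Promoters were those of RefSeq (GRCm38.p6), matched by symbol.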

Additional observations from a re-analysis of the deposited data

Results flagged for a closer look

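Chst11 and Ephx2 were flagged because their fenofibrate arrays lay above the pool while both HFC arrays lay below it as deposited. By the values given above, Fbp2, Cd1d1 and Prxl2a were placed the same way, and for Ephx2 both HFC arrays lay close to the pool. The fenofibrate minus HFC difference was 2.10 for Chst11 and 1.63 for Ephx2. Neither passed the adjusted threshold of limma, and for this opposite placement itself the difference was not tested.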

How the results depend on the processing

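The count of 9 features past the threshold against the pool depended on the setting. It was 32 with the displaced blocks put back, 30 put back with a robust prior, 10 over features with values on all 6 arrays, 1 with arrays centred, 1 with a robust prior, and 0 with the displaced values set to missing, the fenofibrate arrays alone, quantile normalization or single probes. Leaving out 1 array gave between 0 and 7 features, and with the blocks put back between 0 and 76, the 0 coming without any fenofibrate or HFC array. The put-back settings that combine choices were added after seeing the data. Against HFC the count of 0 became 29 with the fenofibrate ratios turned in sign and lay between 0 and 60 with 1 array left out. Against the mean of HFC and lovastatin it became 67 with the sign turned. The cause was not tested.

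With the replicate number as a block, 0 features passed against the pool (lowest adjusted p = 0.184 in limma). As deposited, the deviations of same-numbered samples had correlations of -0.014 (fenofibrate and HFC), 0.031 (fenofibrate and lovastatin) and -0.004 (HFC and lovastatin). Those with HFC hold the displaced values of HFC replicate 2, so they cannot decide whether the numbers pair the samples.

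As for features with the same sign on both fenofibrate arrays, 5765 lay above the pool and 5773 below it. The alternatives gave between 5659 and 6271 above and between 5637 and 6321 below. Quantile normalization raised the features at least 1.5-fold above the pool to 830 and below it to 730, and 1 list median changed sign under it. Of 898 values of 64 genes under alternatives, 819 kept direction and side of the threshold, 64 lost the threshold and 11 gained it. The 2 fenofibrate arrays had opposite signs for 4 of these genes. With fenofibrate replicate 1 left out the value was -0.01 for Abcg8, 0.08 for Apoa5, 0.25 for Ppara and -0.26 for Srebf1. With fenofibrate replicate 2 left out it was 1.18 for Abcg8, -0.08 for Apoa5, -0.39 for Ppara and 0.64 for Srebf1. Of 156 list medians, 140 moved by less than the spread between the arrays and 16 by more, by at most 0.62.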
